A study of Mus musculus with 6 samples.

Results

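The electrical activity of a cardiomyocyte (CM) rests on channels and pumps, and 30 genes of this kind were followed through the last days before birth and the first days after it in CMs of the mouse left ventricle. They were taken by symbol and comprise potassium, calcium and pacemaker channel genes, beta subunits of the sodium channel, subunits of the sodium pump and a pair of TRPM channels, 30 of the 27998 genes in the count tables. Over all CMs, 21 of the 30 had at least 300 unique molecular identifiers (UMIs, each counting a captured RNA molecule), from 306 (Trpm4) to 52813 (Fxyd1), and the ratios below are counted over these. The other 9 are given as UMIs, with Kcnj8 just under the limit at 270 UMIs, then Cacna1d (212), Hcn2 (202), Kcna5 (122), Kcnd3 (23), Hcn4 (20), Kcnj11 (7), Scn3b (7) and Scn4b (5).

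C57BL/6J mice were used at embryonic day 16.5 (E16.5, although the labels of the 4n sample also give day 16.6) and at postnatal days 1 (P1) and 5 (P5), with neither a treatment nor an engineered allele named in the labels. Left ventricles were dissociated, and the cells were fixed in methanol, stained for MYH1 and DNA and sorted into diploid (2n) and tetraploid (4n) CMs. A 4n gate takes binucleated CMs and mononucleated CMs with duplicated DNA alike. Cells of 3 sorts, each from its own litter, were pooled before each of the 6 droplet libraries (named, for instance, E16.5-2n or P5-4n), so that there was 1 library for each condition and no test between conditions. Litters of the 3 ages came from different breeding pairs, so that age, litter, sort and library cannot be told apart, whereas the 2n- and 4n-CMs of an age came from the same sorts.

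In ventricular CMs, inward sodium and calcium currents depolarize the membrane, calcium entry through L-type channels triggers contraction, and several potassium currents of different speed bring the membrane back to rest. The resting potential is held mainly by inward rectifier and background potassium channels, and the sodium pump keeps up the gradients that all of these currents use. Around birth these cells stop dividing, grow and change their set of currents, and T-type calcium channels and pacemaker channels are known as features of immature and of conducting CMs.

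CMs were taken as cells with at least 1 UMI of each of Tnni3, Tnnt2, Actc1 and Tnnc1, which held for 30733 of 31156 cells (98.6%). The libraries held 3654 to 7340 CMs, 13070343 to 19665830 UMIs in CMs and a median of 1831 (P1-2n) to 4658 (P5-4n) UMIs per CM. Levels are UMIs per 1000000 UMIs of the CMs of a library (CPM), in which 1 UMI was worth 0.0508 to 0.0765 CPM. Ratios between libraries are log2 values, each followed in parentheses by its exact 95% binomial interval, and all intervals cover counting error only. A value of 1 is thus a fold of 2. The ventricular markers Myl2, Myl3, Irx4 and Mpped2 summed to 17014 to 24828 CPM, and a list of 5 atrial markers, among them Myl7 and Myl4, which the embryonic ventricle also expresses, to between 89.8 CPM (P5-4n) and 2908 CPM (E16.5-2n). Between any 2 libraries, 17 to 62 cell barcodes were shared. The gene models of 7 members (Kcnq1, Kcnd2, Kcnd3, Cacna1c, Cacna1d, Cacna2d1 and Cacnb2) overlap another gene model on the same strand. Some of their reads could be counted to neither gene if the counting reference holds both models, which was not checked. The gene models of 16 members overlap one on the opposite strand, which strand-specific counting keeps apart. Positions are those of GENCODE vM21 on GRCm38.

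From E16.5 to P5 the potassium channel gene Kcnk3, the T-type calcium channel gene Cacna1g, the KATP channel subunit gene Abcc9 and the auxiliary potassium channel gene Kcne1 took a higher share of the UMIs, whereas the calcium channel genes Cacna2d2 and Cacna1h took a lower share. At least 2-fold higher at P5 than at E16.5 were 3 of the 21 members in 2n-CMs (Kcnk3, Cacna1g and Abcc9), against 3.24% of the 9628 genes with at least 300 UMIs, and 3 in 4n-CMs (Kcne1, Kcnk3 and Cacna1g), against 2.63%. Abcc9 fell just short of the fold in 4n-CMs, from 34.8 to 69.3 CPM, beside 33.7 to 71.1 CPM in 2n-CMs. At least 2-fold lower were 1 member in 2n-CMs (Cacna2d2), against 16.5% of all genes, and 2 in 4n-CMs (Cacna1h and Cacna2d2), against 20.3%. In both ploidies the fold was passed upwards by Kcnk3 and Cacna1g, 2 of 21 members against 2.05% of all genes, and downwards by Cacna2d2, 1 of 21 against 12%. Without the CMs with at least 3 cycling markers, described below, Cacna1g no longer passed the fold in 4n-CMs, at 0.87 (0.32 to 1.45), while Kcnk3 did, at 2.34 (1.95 to 2.76). With libraries scaled by the median of ratios, Cacna1h no longer passed it in 4n-CMs, at -0.91. The median ratio of the members was 0.41 in 2n-CMs, beside -0.44 for all genes, and 0.28 in 4n-CMs, beside -0.50. Relative to these medians of all genes, 17 (2n) and 18 (4n) of the 21 members lay above, and each of the 21 had the same sign in both ploidies, as had 88.2% of all genes. Scaling by the median of ratios, which sets the median gene near 0, left the order of members as it was but put 6 members (2n) and 7 (4n) past the fold upwards and 1 in each downwards. It raised the ratios of all genes alike. The share of all genes past the fold under this scaling is not given here, so these counts are not a result about the members.

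More members passed the fold between E16.5 and P1 than between P1 and P5. Of all genes too, more were lower past the fold in the first step, 12.2% against 2.15% in 2n- and 11.2% against 5.21% in 4n-CMs. Higher past it were 2.22% of all genes against 3.59% in 2n- and 2.84% against 2.38% in 4n-CMs. In 2n-CMs, 3 members were at least 2-fold higher at P1 (Kcnip2, Kcnk3 and Abcc9, against 2.22% of all genes) and 1 at least 2-fold lower (Cacna2d2, against 12.2%). In 4n-CMs, 5 were higher (Kcne1, Kcnip2, Kcnk3, Cacna1g and Abcc9, against 2.84%) and 0 lower (against 11.2%). Of these 5, Kcne1 and Cacna1g stood just past the fold and fell short of it without CMs with cycling markers, at 0.73 (0.65 to 0.81) and 0.62 (0.09 to 1.19). The median ratio of the members was 0.36 in 2n- and 0.45 in 4n-CMs, beside -0.33 and -0.30 for all genes. From P1 to P5, 0 members passed the fold in either direction in 2n-CMs (against 3.59% higher and 2.15% lower among all genes), and in 4n-CMs Kcnd2 was higher (1 of 21, against 2.38%) and Cacna2d2 lower (1 of 21, against 5.21%). The ratio of Kcnd2 was 0.85 (0.28 to 1.42) without CMs with cycling markers, short of the fold. The median ratios of the members were then -0.08 and -0.03, beside -0.09 and -0.15 for all genes.

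**Figure D1:**
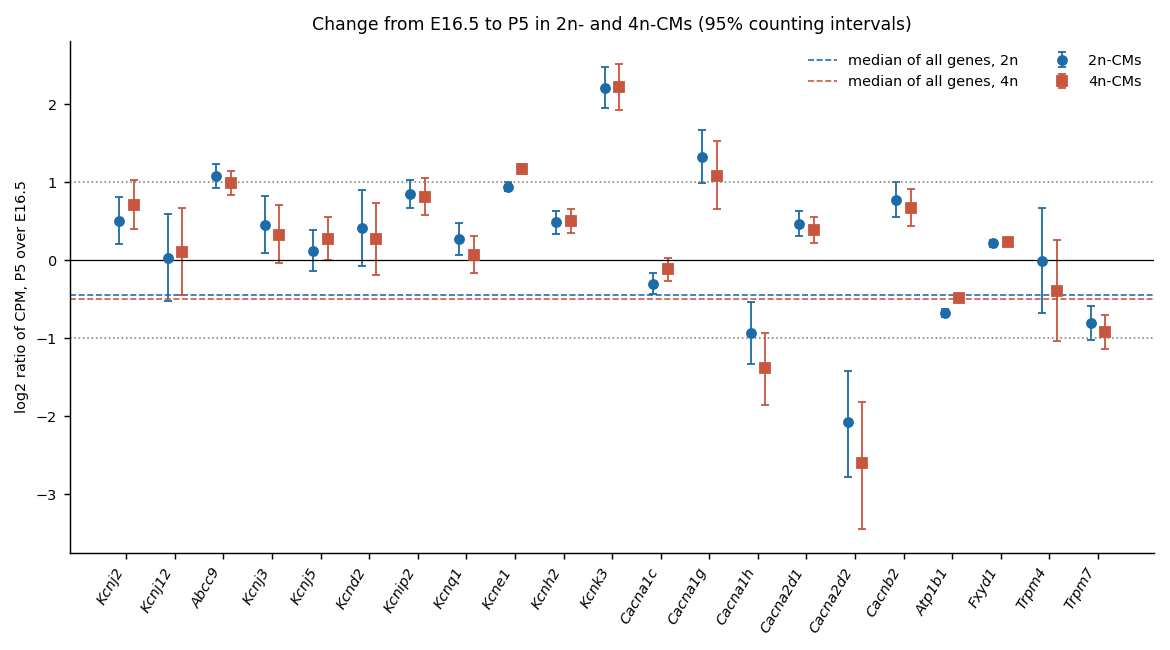
Log2 ratio of CPM, P5 over E16.5, for the 21 members with at least 300 UMIs, in 2n-CMs (circles) and 4n-CMs (squares), with exact 95% counting intervals. Dashed lines mark the median of all genes in each ploidy and dotted lines a fold of 2. Kcnk3 stands highest at 2.22 in both ploidies and Cacna2d2 lowest at -2.08 and -2.60, and most other members lie above the dashed lines.

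Among the delayed rectifiers, Kcnq1 encodes the pore of the slow repolarizing current and Kcne1 its small auxiliary subunit. In the order 2n then 4n at E16.5, 2n then 4n at P1, and 2n then 4n at P5, Kcne1 (chr16:92345982-92359468, minus strand) stood at 263, 195, 423, 394, 506 and 439.7 CPM. Levels were higher at each later age in either ploidy and lower in 4n- than in 2n-CMs at each age. At P1 the difference between ploidies changed sign when CMs with any fibroblast, endothelial, immune or mural marker were left out. At P5 it changed sign without the CMs with cycling markers described below. The ratio of P5 to E16.5 was 0.94 (0.89 to 1.00) in 2n- and 1.17 (1.11 to 1.24) in 4n-CMs, 1.92- and 2.25-fold. Kcnq1, in the same order, stood at 22.6, 19.7, 28.7, 21.7, 27.2 and 20.8 CPM, with a ratio of P5 to E16.5 of 0.27 (0.06 to 0.47) in 2n- and 0.07 (-0.16 to 0.31) in 4n-CMs, the latter not resolved from 0 at this depth. The balance of the pair, which needs no scaling between libraries, thus moved towards Kcne1, with 11.6, 9.89, 14.7, 18.2, 18.6 and 21.2 Kcne1 UMIs for each Kcnq1 UMI in the same order. Molecules of different genes may be captured with different yield, so that such a ratio is compared between libraries and not read as a number of subunits.

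Kcnh2, which encodes the pore of the rapid delayed rectifier, stood at 42.3, 40.1, 66.0, 59.0, 59.2 and 56.9 CPM. Its levels at P1 and P5 lay above those at E16.5 in both ploidies, with ratios of 0.64 (0.50 to 0.79) and 0.56 (0.41 to 0.71) from E16.5 to P1. Kcna5, the pore of an ultrarapid current of the adult mouse ventricle, had 9, 19, 8, 46, 20 and 20 UMIs. The library with most Kcna5 UMIs was P1-4n, described with the other cell types below.

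The transient outward current, which begins repolarization, is carried by pores encoded by Kcnd2 and Kcnd3, with Kcnip2 as the calcium-binding subunit that brings them to the membrane. Kcnip2 (chr19:45791839-45816061, minus strand) stood at 25.8, 16.5, 57.3, 44.4, 46.7 and 29.1 CPM. It was highest at P1 in both ploidies and lower in 4n- than in 2n-CMs at every age. From E16.5 to P1 the ratio was 1.15 (0.98 to 1.33) in 2n- and 1.43 (1.21 to 1.65) in 4n-CMs, and from P1 to P5 -0.30 (-0.43 to -0.16) and -0.61 (-0.77 to -0.45). Kcnd2 was found at a lower level, 4.03, 5.05, 3.89, 2.90, 5.36 and 6.09 CPM, and Kcnd3 had 1, 4, 1, 8, 5 and 4 UMIs. In 4n-CMs Kcnd2 was lowest at P1, with a ratio from P1 to P5 of 1.07 (0.60 to 1.56), while its ratio over the whole span was 0.41 (-0.07 to 0.90) in 2n- and 0.27 (-0.18 to 0.73) in 4n-CMs, intervals that include 0. Kcnip2 UMIs for each Kcnd2 UMI numbered 6.41, 3.27, 14.7, 15.3, 8.72 and 4.79 in the same order, again with the highest values at P1.

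Kcnj2 and Kcnj12 encode the inward rectifiers that hold the resting potential. Kcnj2 stood at 10.1, 9.18, 13.0, 12.5, 14.4 and 15.1 CPM and Kcnj12 at 3.49, 3.60, 3.16, 3.15, 3.57 and 3.86 CPM. Kcnj2 was higher at P5 than at E16.5 in both ploidies, by 0.51 (0.21 to 0.81) and 0.71 (0.40 to 1.03), whereas the 6 intervals of Kcnj12 overlapped and its ratios, 0.03 (-0.52 to 0.59) and 0.10 (-0.45 to 0.67), did not exclude 0. Kcnj12 made up 25.6%, 28.1%, 19.6%, 20.1%, 19.9% and 20.4% of the UMIs of the pair. Kcnj3 and Kcnj5 form the channel that acetylcholine opens, best known in atria and nodes. They stood at 6.91, 7.34, 10.2, 9.46, 9.48 and 9.24 CPM (Kcnj3) and 15, 13.7, 21.6, 19.9, 16.4 and 16.6 CPM (Kcnj5). Both were higher at P1 than at E16.5, Kcnj3 by 0.56 (0.19 to 0.93) and 0.36 (0.00 to 0.74) and Kcnj5 by 0.52 (0.27 to 0.77) and 0.54 (0.28 to 0.80), and Kcnj5 was then lower at P5 than at P1, with ratios of -0.40 (-0.62 to -0.17) and -0.26 (-0.48 to -0.04). The ratio of Kcnj3 from E16.5 to P1 in 4n-CMs changed sign when CMs were thinned to 2000 UMIs. Kcnj3 held 31.5 to 36.6% of the UMIs of this pair in the 6 libraries, whose intervals overlapped.

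KATP channels open when ATP is low and join a pore, Kcnj8 or Kcnj11, with a sulfonylurea receptor, for which Abcc9 is the form known from heart and vascular muscle. Abcc9 (chr6:142587862-142702315, minus strand) stood at 33.7, 34.8, 89.3, 92.8, 71.1 and 69.3 CPM. The 4 postnatal libraries lay well above the 2 at E16.5, and the ratio from E16.5 to P1 was 1.41 (1.26 to 1.56) in 2n- and 1.41 (1.27 to 1.57) in 4n-CMs, followed by -0.33 (-0.44 to -0.22) and -0.42 (-0.53 to -0.32) to P5. The pore genes gave few UMIs beside it. Kcnj8, the neighbour of Abcc9 on chromosome 6, 16247 bases away on the same strand, had 36, 70, 18, 101, 18 and 27 UMIs, and Kcnj11, the pore known from adult ventricle, had 0, 0, 0, 2, 2 and 3. Kcnj8 UMIs were most numerous in the 4n-CMs of E16.5 and P1.

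Kcnk3 encodes an acid-sensitive background potassium channel that helps to set the resting potential. Kcnk3 (chr5:30588170-30625271, plus strand) stood at 9.98, 8.65, 25.8, 25.9, 46.4 and 40.3 CPM. It was higher at each later age in both ploidies with intervals that did not overlap, 4.64-fold higher at P5 than at E16.5 in 2n- and 4.66-fold in 4n-CMs, the highest ratio of the 21 members in both. The steps were 1.37 (1.10 to 1.65) and 1.58 (1.29 to 1.89) to P1 and 0.84 (0.67 to 1.02) and 0.63 (0.47 to 0.80) from P1 to P5.

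The beta subunits of the sodium channel and the pacemaker channels were near the limit of detection. Scn3b had 1, 1, 0, 0, 3 and 2 UMIs and Scn4b 0, 0, 1, 3, 0 and 1, where a count of 0 allows up to 3 UMIs, 0.153 to 0.230 CPM. Hcn4, the main pacemaker channel of the sinus node, had 2, 9, 2, 3, 3 and 1 UMIs. Hcn2, its partner in the pacemaker family that ventricular myocytes also express, had 2, 3, 20, 30, 77 and 70 UMIs, with few before birth and the highest counts at P5 in both ploidies. The libraries' totals, 13070343 to 19665830 UMIs, spanned a much narrower range than these counts. Hcn4 made up 2 of 4 and 9 of 12 UMIs of the pair in the E16.5 libraries, and 3.75% (0.780 to 10.6) and 1.41% (0.0357 to 7.60) in P5-2n and P5-4n.

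Sequence before the gene start is shown for chosen members, Hcn2, Abcc9 and Kcnip2. Each had at least 100 UMIs and was at least 2-fold higher at a later age than at E16.5 in both ploidies, in CPM or, for Hcn2, in UMIs. The bases shown lie before the start in both RefSeq and GENCODE. Cacna2d2, which was lower at P5, also had RefSeq sequence and is not shown. RefSeq windows (GRCm38.p6) were found for 22 of the 30 members, and the first 250 bases of all 32851 windows were searched on both strands for 6 motifs, given with the share of windows that hold them. The motif of TEAD factors, CATTCC, was in 12.6% of all windows, and that of GATA factors, AGATAA, in 9.99%. The TATA box was searched as TATAAA and was in 12.4% of windows. A GC box, searched as GGGCGG, was in 32.7%. Nuclear receptors bind half-sites such as AGGTCA, which was in 14.0% of windows. A longer form of that half-site, TCAAGGTCA, which holds the shorter one within it, was in 0.387%. Capitals mark matches on either strand in the windows below, read 5′ to 3′ towards the gene.
Hcn2, chr10:79716384-79716633, plus strand: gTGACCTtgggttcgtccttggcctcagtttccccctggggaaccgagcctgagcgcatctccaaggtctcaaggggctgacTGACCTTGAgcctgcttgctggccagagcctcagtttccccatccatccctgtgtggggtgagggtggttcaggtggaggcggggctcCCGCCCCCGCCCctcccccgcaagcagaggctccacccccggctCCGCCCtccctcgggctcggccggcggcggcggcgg
Abcc9, chr6:142702316-142702524, minus strand: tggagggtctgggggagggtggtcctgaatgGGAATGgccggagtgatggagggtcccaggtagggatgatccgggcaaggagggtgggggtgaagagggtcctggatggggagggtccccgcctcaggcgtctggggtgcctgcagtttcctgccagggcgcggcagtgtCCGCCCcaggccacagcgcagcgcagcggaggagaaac
Kcnip2, chr19:45816064-45816313, minus strand: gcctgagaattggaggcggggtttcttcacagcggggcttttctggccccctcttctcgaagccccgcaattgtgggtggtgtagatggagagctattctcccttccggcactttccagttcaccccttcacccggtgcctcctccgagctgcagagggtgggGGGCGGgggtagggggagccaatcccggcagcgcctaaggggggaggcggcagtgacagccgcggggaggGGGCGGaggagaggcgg
Hcn2 held the longer half-site on the opposite strand, as TGACCTTGA, a second short half-site and 3 matches to the GC box. Abcc9 held 1 match to the TEAD motif and 1 to the GC box, and Kcnip2 held 2 to the GC box. Among the 26 windows of members, the TEAD motif was found in 3 and the GATA motif in 0. The TATA box was found in 1 and the GC box in 14. The short and the longer half-site were each found in 1, the window of Hcn2. A match is a run of letters and not a bound site.

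Cacna1c and Cacna1d encode pores of L-type calcium channels, of which Cacna1c carries the current that triggers contraction in the ventricle. Cacna1c stood at 62.3, 52.6, 78.9, 74.6, 50.6 and 48.5 CPM, highest at P1 in both ploidies, with a ratio from P1 to P5 of -0.64 (-0.76 to -0.52) and -0.62 (-0.74 to -0.50). Over the whole span its ratio was -0.30 (-0.43 to -0.17) and -0.12 (-0.26 to 0.03), above the median of all genes, and its sign turned when libraries were scaled by the median of ratios (0.14 and 0.36). Cacna1d, better known from nodes and atria, had 35, 39, 26, 55, 30 and 27 UMIs, 1.97 to 5.37% of the UMIs of the pair.

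The T-type pore genes, whose channels open at low voltage, had ratios of opposite sign. Cacna1g (chr11:94408391-94474198, minus strand) stood at 6.56, 4.67, 9.67, 9.51, 16.5 and 9.89 CPM and Cacna1h (chr17:25374285-25433783, minus strand) at 9.44, 8.80, 5.78, 6.51, 4.97 and 3.37 CPM. From E16.5 to P5 the ratio of Cacna1g was 1.33 (0.99 to 1.67) in 2n- and 1.08 (0.66 to 1.53) in 4n-CMs, and that of Cacna1h -0.93 (-1.33 to -0.53) and -1.38 (-1.85 to -0.93). Cacna1g accordingly made up 41.0%, 34.7%, 62.6%, 59.4%, 76.8% and 74.6% of the T-type UMIs, from 41.0% (34.7 to 47.6) to 76.8% (72.3 to 81.0) in 2n-CMs and from 34.7% (27.7 to 42.2) to 74.6% (68.6 to 79.9) in 4n-CMs, intervals that do not overlap. Against the same genes at P1, the intervals at P5 did not overlap either. T-type pores together held 19.8%, 19.5%, 16.1%, 17.1%, 29.1% and 21.0% of the T- and L-type UMIs, highest in P5-2n, whose interval overlapped none of the other 5.

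Cacna2d1, Cacna2d2 and Cacnb2 encode auxiliary subunits that carry calcium channel pores to the membrane and tune them. Cacna2d1 stood at 35.8, 35.3, 37.0, 34.9, 49.7 and 46.2 CPM and Cacnb2 at 16.6, 15.8, 24.7, 21.9, 28.5 and 25.2 CPM. The P5 libraries were the highest for both genes, with ratios to E16.5 of 0.47 (0.32 to 0.63) and 0.39 (0.22 to 0.55) for Cacna2d1 and 0.78 (0.55 to 1.00) and 0.67 (0.43 to 0.92) for Cacnb2. For each Cacna1c UMI there were 0.575, 0.672, 0.469, 0.468, 0.982 and 0.954 Cacna2d1 UMIs and 0.267, 0.300, 0.314, 0.293, 0.562 and 0.519 Cacnb2 UMIs in the same order, with the P5 libraries above the others in both series. Cacna2d2 (chr9:107399612-107529343, plus strand) stood at 5.88, 5.59, 1.82, 4.83, 1.39 and 0.924 CPM. It was 4.22-fold lower at P5 than at E16.5 in 2n- and 6.05-fold lower in 4n-CMs, but the P1 libraries differed. Over all CMs, P1-2n lay near the P5 level and P1-4n near the E16.5 level. The latter did not hold among CMs below 3 cycling markers, a class described below. There E16.5-4n stood at 10.1 CPM, whereas P1-4n was at 5.05 CPM. Of the UMIs of Cacna2d1 and Cacna2d2, the latter held 14.1%, 13.6%, 4.70%, 12.2%, 2.73% and 1.96%.

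The sodium pump was represented by its beta subunit gene Atp1b1 and by Fxyd1, the phospholemman that regulates it. Both were among the most abundant members, Atp1b1 at 558, 457, 330.3, 303, 349.6 and 327 CPM and Fxyd1 at 527, 474, 491, 489.9, 612 and 556 CPM. Atp1b1 was lower after birth, with ratios of -0.67 (-0.72 to -0.63) and -0.48 (-0.54 to -0.43) from E16.5 to P5, and Fxyd1 was higher at P5 than at E16.5, at 0.22 (0.17 to 0.26) and 0.23 (0.18 to 0.28), although lower in P1-2n than in E16.5-2n. In 4n-CMs the ratio of Atp1b1 was thus near the median of all genes (-0.50). Fxyd1 UMIs for each Atp1b1 UMI numbered 0.944, 1.04, 1.49, 1.62, 1.75 and 1.70 in the same order. Of the TRPM channels, Trpm7, a divalent cation channel with a kinase domain, stood at 28.2, 32.2, 23.5, 28.3, 16.2 and 17.0 CPM, with ratios from E16.5 to P5 of -0.80 (-1.03 to -0.58) and -0.92 (-1.14 to -0.71). Trpm4, a calcium-activated cation channel, stood at 2.46, 3.14, 3.47, 4.27, 2.45 and 2.39 CPM, and its ratios over this span, 0.00 (-0.67 to 0.67) and -0.39 (-1.04 to 0.26), include 0.

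**Figure D2:**
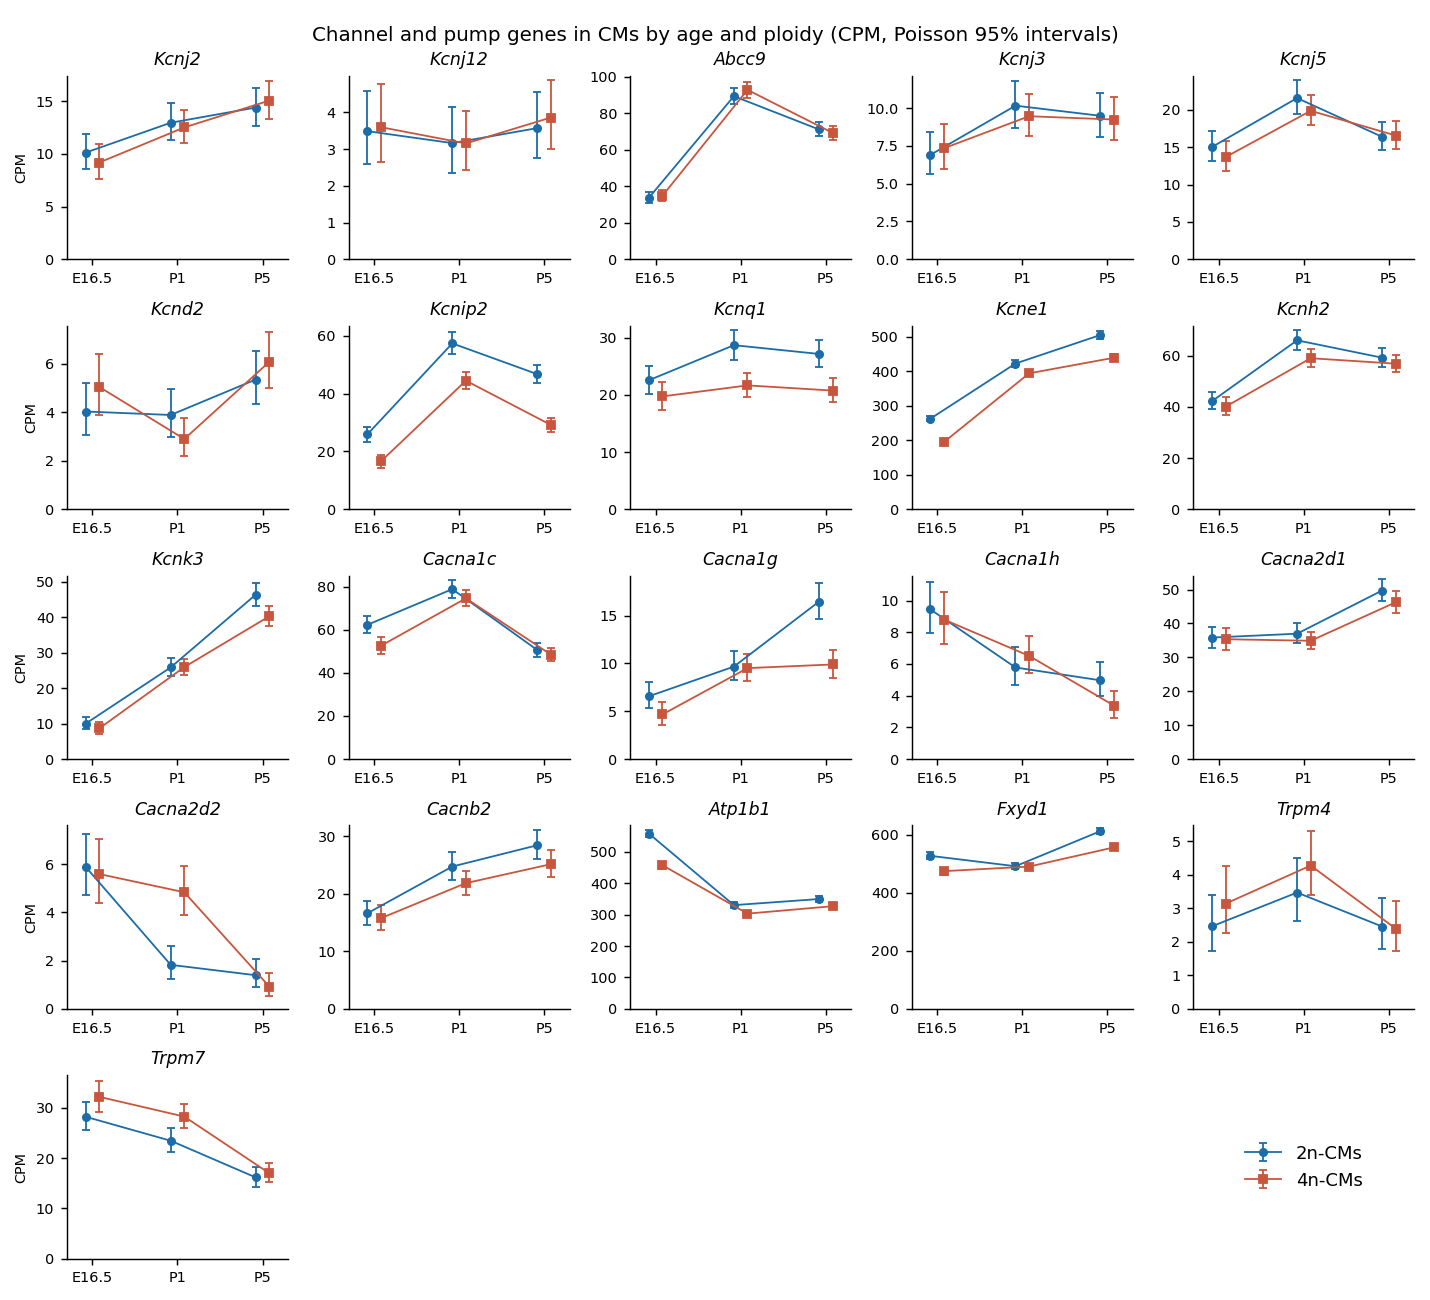
CPM (vertical axes from 0) of the 21 members with at least 300 UMIs at E16.5, P1 and P5 in 2n-CMs (circles) and 4n-CMs (squares), with Poisson 95% intervals. Kcnk3 climbs at each age, Abcc9 and Kcnip2 peak at P1, Cacna1g and Cacna1h run in opposite directions, and Cacna2d2 in P1-4n lies apart from P1-2n.

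**Figure D3:**
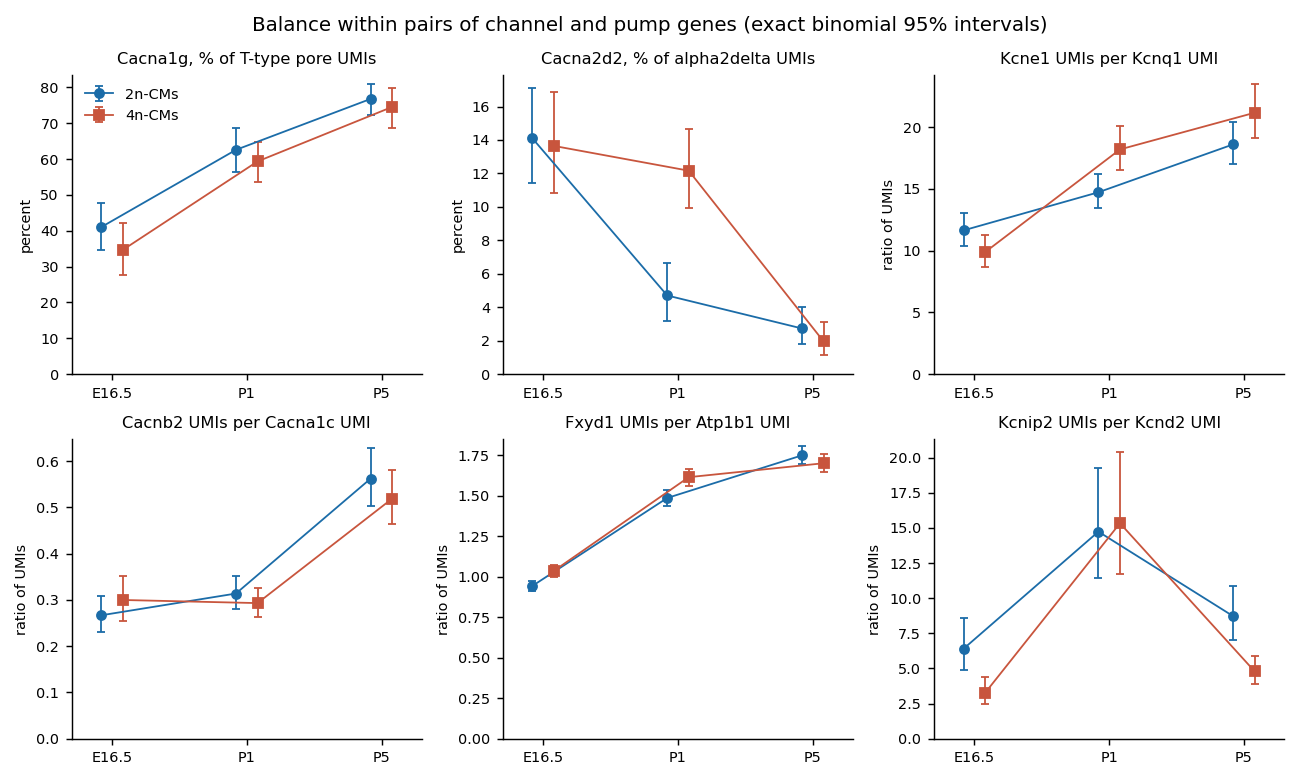
UMIs of a gene relative to a partner in each library, as percent of the pair or as a ratio, with exact binomial 95% intervals (2n-CMs circles, 4n-CMs squares, ages on the horizontal axes). The share of Cacna1g and the ratio of Kcne1 to Kcnq1 are higher at each later age in both ploidies, Cacnb2 per Cacna1c is set apart at P5, and Kcnip2 per Kcnd2 is highest at P1.

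Between 2n- and 4n-CMs of an age, few members were far apart. At least 1.5-fold higher in 4n- than in 2n-CMs were 0 of 21 members at E16.5 (against 9.22% of all genes), 1 at P1 (Cacna2d2, against 9.34%) and 0 at P5 (against 4.05%). At least 1.5-fold lower were 1 at E16.5 (Kcnip2, against 1.3%), 0 at P1 (against 0.322%) and 3 at P5 (Kcnip2, Cacna1g and Cacna2d2, against 2%). The median ratio of 4n to 2n over the members was -0.10, -0.08 and -0.10 at the 3 ages, beside 0.03, 0.05 and 0.02 for all genes. Kcnip2 was lower in 4n-CMs at each age, with ratios of -0.65 (-0.89 to -0.40), -0.37 (-0.50 to -0.23) and -0.68 (-0.84 to -0.52). So were Kcne1, with -0.43 (-0.50 to -0.36), -0.10 (-0.15 to -0.05) and -0.20 (-0.25 to -0.16), and Atp1b1, with -0.29 (-0.34 to -0.24), -0.12 (-0.18 to -0.07) and -0.10 (-0.15 to -0.05). Cacna1g had a ratio of -0.73 (-1.01 to -0.46) at P5, where the 2n library stood apart from the others, and Kcnq1 of -0.41 (-0.60 to -0.21) at P1 and -0.39 (-0.59 to -0.19) at P5. The ratio of Cacna2d2 at P5, -0.59 (-1.57 to 0.35), rests on 25 and 17 UMIs. Without CMs with any fibroblast, endothelial, immune or mural marker, none of Kcnip2 at E16.5, at -0.51 (-0.83 to -0.19), and Cacna1g and Cacna2d2 at P5, at -0.56 (-0.96 to -0.18) and -0.41 (-2.18 to 1.24), passed the fold. The ratio of Kcne1 at P1 changed sign without those CMs.

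**Figure D4:**
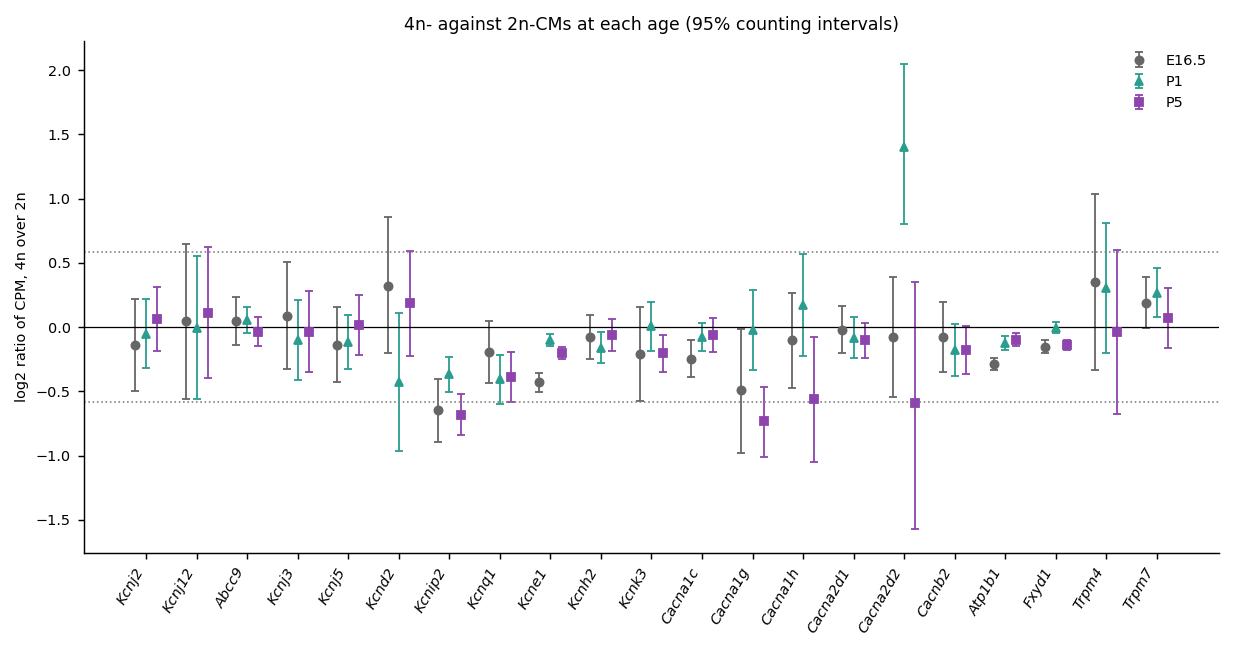
Log2 ratio of CPM, 4n over 2n, at E16.5 (circles), P1 (triangles) and P5 (squares) for the 21 members, with exact 95% counting intervals. Dotted lines mark a fold of 1.5. Kcnip2 lies below 0 at the 3 ages, and Cacna2d2 at P1 is the member farthest above it, at 1.40.

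CMs with markers of the cell cycle were unequally spread over these libraries, and levels of some channel genes in them differed from those of other CMs. UMIs of at least 3 of 14 cycling markers (Top2a, Mki67, Cdk1 and others, each detected in every library) were found in 13.1%, 47.3%, 1.55%, 9.18%, 8.72% and 34.2% of CMs in the same order, with 233 CMs of P5-4n at 2 markers and 136 at exactly 3, so that the class is a range and not a cell type. Kcne1 was lower in these CMs than in the CMs below 3 markers in each of the 6 libraries, at 151 against 247 CPM in E16.5-4n, 311 against 408 in P1-4n and 269.9 against 543 in P5-4n. At P5 the same was seen for Kcnk3, at 31.4 against 48.5 CPM in P5-2n and 26.3 against 48.8 in P5-4n. Kcnip2 stood at 21.8 against 33.6 CPM and Kcnj2 at 10.8 against 17.7 CPM in P5-4n. Cacna2d2 was lower in the cycling-marker class of E16.5-4n, at 1.70 against 10.1 CPM, on 12 and 61 UMIs. This ratio was -2.57 (-3.60 to -1.67), while the intervals of Cacna2d2 for the other libraries spanned both signs. Atp1b1 and Trpm7 in P5-4n differed little between the classes, by 0.06 (-0.02 to 0.13) and 0.19 (-0.15 to 0.52), and Cacna2d1 was higher in the cycling-marker class, by 0.26 (0.06 to 0.46). The cells of a library share 1 source and are not replicates, so these are descriptions within libraries. The median CM of the class also held more UMIs, 4954 against 4460.0 in P5-4n.

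With these CMs left out, the ratio of 4n to 2n of Kcne1 was -0.18 (-0.27 to -0.10) at E16.5 and 0.04 (-0.01 to 0.09) at P5, and that of Kcnk3 at P5 0.01 (-0.15 to 0.17), against -0.20 (-0.35 to -0.06) with them. For Kcnip2 the ratios became -0.38 (-0.69 to -0.07), -0.34 (-0.48 to -0.20) and -0.53 (-0.71 to -0.35), below 0 but no longer past the fold at E16.5 or at P5. Cacna1g at P5 kept a ratio of -0.60 (-0.92 to -0.29), and Kcnq1 of -0.35 (-0.58 to -0.13). Summed over CMs, the cycling markers stood at 515, 2353, 83.8, 335, 229 and 1121 CPM in the order above. Beyond these values, their part in the differences between 2n- and 4n-CMs was not tested.

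Cacna2d2 UMIs were concentrated in a small set of CMs. CMs with at least 3 markers of an atrial list or at least 3 of a list of trabecular and conduction CMs (Nppa, Gja5, Cpne5, Slit2, Irx3 and Etv1) numbered 284, 251, 55, 160, 62 and 30 in the same order. In these CMs Cacna2d2 stood at 36.9 CPM against 3.46 in the remaining CMs of E16.5-2n, at 37.6 against 2.83 in E16.5-4n and at 52.8 against 1.47 in P1-4n. They held 68 of 95 of its UMIs in P1-4n (71.6%) but 6.55% of all UMIs. Kcnj3 was also higher in them, at 19.9 against 5.90 CPM in E16.5-2n and 20.2 against 8.71 in P1-4n, and Cacna1h at 16.3 against 5.82 CPM in P1-4n, whereas Kcne1 was not, at 373 against 396 CPM. Without these CMs, the ratio of 4n to 2n of Cacna2d2 at P1 was 0.12 (-0.75 to 1.00), on 22 and 27 UMIs, in place of 1.40 (0.80 to 2.05). Its ratio from E16.5 to P5 stayed below 0 without them, at -1.69 (-2.54 to -0.89) in 2n- and -3.36 (-5.07 to -2.0) in 4n-CMs. In P1-4n the median CM of this set held 6593 UMIs, against 3121 in the other CMs, and the part of this depth was not tested. Further members were higher in the P1-4n CMs with at least 3 trabecular and conduction markers, taken alone. There Kcnk3 stood at 49.5 against 25.1 CPM, Atp1b1 at 455 against 298 and Cacna1g at 19.8 against 9.13. Kcnh2 stood at 79.2 against 58.3 CPM and Cacna2d1 at 50.9 against 34.3, with intervals of the ratio that only just exclude 0. Kcnj3, Cacna1h and Cacna2d2 were higher there too, at 31.1 against 8.65, 15.6 against 6.17 and 80.6 against 2.00 CPM. Kcne1 was lower there, at 342 against 396 CPM. For the remaining members with a ratio, the interval included 0.

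**Figure D5:**
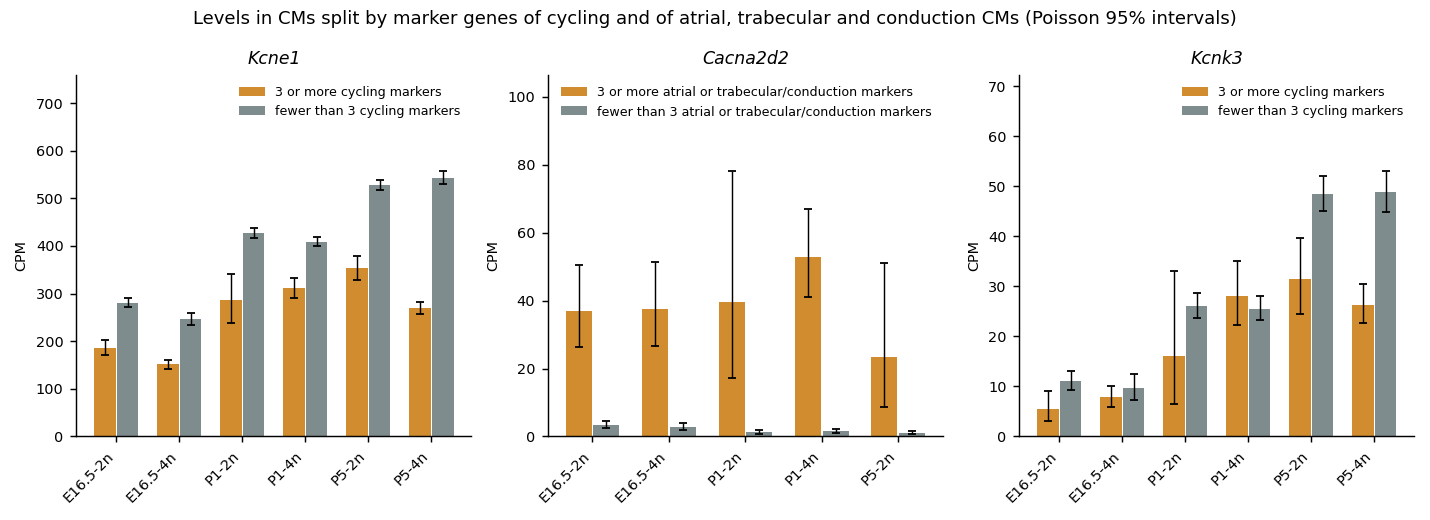
CPM of Kcne1 and Kcnk3 in CMs with at least 3 or with fewer cycling markers, and of Cacna2d2 in CMs with at least 3 or with fewer atrial or trabecular and conduction markers, in each library with at least 50 CMs of the class (bars from 0, Poisson 95% intervals). Kcne1 is lower in the cycling-marker class in the 6 libraries, and Cacna2d2 is higher in the atrial or trabecular and conduction class in the 5 libraries shown.

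Transcripts of other cell types were also unequal. CMs with at least 3 markers of fibroblasts, endothelial, immune, mural or smooth muscle cells made up 3.44%, 18.7%, 2.08%, 27.9%, 4.83% and 10.2% in the same order. Kcnj8, which pericytes and vascular muscle are known to express, had 46 of 70 of its UMIs in such CMs of E16.5-4n and 71 of 101 in those of P1-4n (70.3%, beside 37.1% of all UMIs). In P1-4n, 46 of 101 lay in the 145 CMs with at least 3 of 7 mural markers. Kcna5 had 34 of 46 of its UMIs in CMs with such markers in P1-4n. When CMs with any fibroblast, endothelial, immune or mural marker were left out, Kcnj8 had 6 UMIs in P1-2n and 7 in P1-4n. Leaving such CMs out kept 13068702 UMIs of P1-2n and 6373117 of P1-4n. These Kcnj8 UMIs thus stand against unlike totals and are too few to compare as levels. Abcc9 was not confined to such CMs, with 102 against 87.6 CPM in P1-4n, and its ratio from E16.5 to P1 without CMs with at least 3 such markers was 1.42 (1.27 to 1.58) in 2n- and 1.38 (1.20 to 1.56) in 4n-CMs. In the P1-4n CMs with at least 3 mural markers, Abcc9 stood at 142 against 89.9 CPM, a ratio of 0.66 (0.42 to 0.90). With endothelial or immune markers it stood at 94.7 against 92.6 and 83.3 against 93.0 CPM, with intervals of the ratio that include 0. Summed over CMs, the 8 fibroblast markers stood at 133, 796, 142, 947, 263 and 359.9 CPM and the 7 mural markers at 38.4, 77.4, 24.4, 108, 42.2 and 53.2 CPM in the same order. The 5 smooth muscle markers summed to 1876, 1533, 670, 622, 648 and 684 CPM. In E16.5-2n, 101 of the 196 CMs counted above had at least 3 of these 5. Whether CMs themselves express these genes was not tested. UMIs of at least 3 of 6 erythroid genes, among them 4 haemoglobin genes, were found in 54.2%, 63.3%, 17.8%, 42.6%, 43.0% and 37.7% of CMs, and the list summed to 5127, 10332, 1896, 2906, 2242 and 1649 CPM in the same order. In P1-2n, 14 of 18 Kcnj8 UMIs lay in such CMs, which held 20.1% of all UMIs, whereas Kcne1 and Kcnk3 stood at 414 against 425 and 23.0 against 26.5 CPM in them and in the other CMs. Among the fibroblast and mural markers, Vtn was at 0 UMIs in P1-2n. Droplets with more than 1 cell and free RNA were not told apart, and their part in these values was not tested.

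The other channel, exchanger and pump genes of a list of 65 were read in the same way, 24 of them with at least 300 UMIs. At least 2-fold lower at P5 than at E16.5 were Slc8a1, Atp2b4, Cacng6 and Nedd4l in 2n-CMs and Slc8a1, Atp2b4, Cacng6 and Pkd2 in 4n-CMs, 4 of 24 each. Of all genes, 16.5% in 2n- and 20.3% in 4n-CMs were lower by the same fold, so these counts do not set the list apart. The median ratio of the 24 genes was -0.16 in 2n- and -0.36 in 4n-CMs, between that of all genes and that of the members. Of those that were lower, Slc8a1, the sodium-calcium exchanger, had a ratio of -1.47 (-1.84 to -1.10) in 2n- and -1.29 (-1.67 to -0.92) in 4n-CMs. Cacng6, a gamma subunit of calcium channels, had -1.45 (-1.75 to -1.14) in 2n- and -1.04 (-1.37 to -0.71) in 4n-CMs. For Nedd4l, a ubiquitin ligase that acts on sodium channels, the ratio was -1.17 (-1.43 to -0.91) in 2n- and -0.92 (-1.17 to -0.66) in 4n-CMs.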

How the data were processed

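Per the study's methods, the authors aligned reads of the 6 droplet libraries to GRCm38 with STAR in Cell Ranger (version not given in the sources used here) and deposited UMI counts for each gene and cell, counted by strand over exons and introns of the GRCm38.84 transcriptome. The submitters' processing notes also name Seurat 2.3.0. Deposited tables of the authors' own comparisons and of their background genes were not used. UMIs were summed over CMs of each library and expressed as CPM, with exact Poisson 95% intervals, and ratios carried Clopper-Pearson intervals (Python 3.11.15, NumPy 2.4.6, SciPy 1.17.1, pandas 2.3.3). A CPM is a share of the RNA, so that a gene can differ because others do. With 1 library for each condition, no test was made. A gene was counted past the fold at 2-fold between ages and 1.5-fold between ploidies, among genes with at least 300 UMIs, and a count of 0 was read as up to 3 UMIs. Every member was named, with CPM and ratios at 300 UMIs and as UMIs below, along with the 3 other channel or pump genes of largest ratio in each direction from E16.5-2n to P5-2n, of which those that were higher at P5 are not reported here. No doublet caller was run and no cell was removed as a doublet. Members, gene lists and alternatives were chosen with earlier results of these data known. Of the 12 alternatives, 10 were set down at the start and 2 were chosen after seeing the data. The code was tested on simulated data.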

Additional observations from a re-analysis of the deposited data

Results flagged for a closer look

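Fxyd1 was the member with ratios from E16.5 to P1 of opposite sign in the 2 ploidies, beyond counting error in at least 1. The ratios were -0.10 in 2n-CMs and 0.047 in 4n-CMs. The difference was not tested, since each value compares 1 library with 1 other, and the sign in 2n-CMs turned to 0.22 when libraries were scaled by the median of ratios.

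The 423 cells that did not pass the CM filter, which enter no comparison above, held 534 UMIs of members among 514213 UMIs, or 1038 CPM, beside 1725 CPM in CMs. This is above the 3 UMIs that a count of 0 allows.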

How the results depend on the processing

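The counts of members past the fold, 18 in all (9 comparisons, 2 directions), stayed within 1.5 times under the stricter CM filter and without a filter on cells. The counts below stand without the share of all genes past the fold in the same setting. They show how far the calls depend on processing and are not results about the members. Scaling by the median of ratios gave 6 higher members in place of 3 from E16.5-2n to P5-2n, and 7 higher in place of 3 and 1 lower in place of 2 from E16.5-4n to P5-4n. With the 50 most abundant genes out of the total, both spans gave 6 higher. The mean over CMs gave, for E16.5-4n to P1-4n, 3 higher (5 before) and 1 lower (0 before), and 1 lower in place of 0 between ploidies at P1. Without CMs with 3 markers of another cell type, 2 in place of 1 were lower from E16.5-2n to P5-2n, and 1 in place of 0 from E16.5-4n to P1-4n. Without CMs with 3 cycling markers, 2 were lower from E16.5-2n to P5-2n, and 3 higher and 1 lower (Cacna2d2) from E16.5-4n to P1-4n. That setting also gave 0 higher from P1-4n to P5-4n (1 before), and 1 higher and 0 lower between ploidies at E16.5. Thinned to 2000 UMIs, 1 was higher and 1 lower from P1-2n to P5-2n (0 each before), 2 lower from P1-4n to P5-4n and 1 higher between ploidies at E16.5. Of the 2 alternatives chosen after seeing the data, leaving out CMs with any marker of another cell type gave 1 lower from E16.5-4n to P1-4n, 3 lower from P1-4n to P5-4n, 1 higher and 0 lower between ploidies at E16.5 and 2 higher at P1, and leaving out CMs with 3 atrial or 3 trabecular and conduction markers gave 2 lower at E16.5 and 0 higher at P1. For these settings the cause was not tested. A minimum of 100 UMIs, which adds members of few UMIs, gave 2 lower from E16.5-2n to P1-2n, 2 higher from P1-2n to P5-2n, 2 lower from E16.5-2n to P5-2n, 2 higher and 3 lower from P1-4n to P5-4n, 4 lower from E16.5-4n to P5-4n, and 3 and 4 higher between ploidies at E16.5 and P1. With no minimum these were 2 lower, 3 higher, 6 higher and 2 lower, 2 higher and 5 lower, 5 lower, and 5 and 6 higher, with 1 lower from E16.5-4n to P1-4n and 5 lower between ploidies at P5 besides.

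The labels give no replicate numbers, and a comparison of ploidies with age as a block was not made. Single members lost their call as follows. In E16.5-4n to P1-4n, Kcne1 stood at 0.96 by the mean over CMs and at 0.95 after thinning, and Cacna1g at 0.91 by the mean over CMs and without CMs with any marker of another cell type. Between ploidies, Kcnip2 at E16.5 stood at -0.58 and -0.56 by the mean over CMs and after thinning, and Cacna1g at P5 at -0.54 after thinning. The other calls that ended are given with the results. Members with few UMIs have wide intervals.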
